A study of Mus musculus with 10 samples.

Results

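The 10 genes described here build sugar chains of intestinal mucins and glycolipids. They are *Fut2*, *Fut4*, *B4galnt1*, *B4galnt2*, *B3gnt7*, *Gcnt3*, *St3gal4*, *St3gal6*, *St6galnac1* and *C1galt1*, chosen by name as enzymes of epithelial fucosylation and mucin glycosylation, and all 10 were found among the 35275 Ensembl gene IDs counted in each library. RNA-seq had been run on frozen segments of proximal intestine from 5 WT and 5 KO mice of 8 to 10 weeks, with 1 library per mouse. The KO mice lacked the zinc and iron transporter *Zip14* (*Slc39a14*), and no further allele or treatment is given for either group. The methods of the study describe the sequenced KO as a knockout of the whole body, with wild-type mice of the same strain from heterozygous matings as controls, while the title of the series names a deletion in enterocytes. Sex was not given for the single libraries, and Y-linked genes were at or near 0 in all 10 of them. A whole segment of intestine holds muscle, nerves, immune cells and lymphoid follicles beside the epithelium.

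Mucins of the intestine are decorated with sugar chains that start with N-acetylgalactosamine on serine or threonine. C1galt1 adds the first galactose (core 1), Gcnt3 and its relatives add branches, B3gnt7 lengthens chains, and fucose, sialic acid and sulfate close the ends. The terminal fucose made by Fut2 is the H antigen of secretor type, which gut bacteria use as food and as a site of attachment. In mice it is known to be scarce in the upper small intestine, to become more frequent towards the ileum, and to be induced by interleukin-22 and lymphotoxin from innate lymphoid cells.

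All 10 genes passed the filter on low counts. In edgeR's quasi-likelihood test over 15610 genes, 4 of the 10 differed between KO and WT at an adjusted p under 0.05, where 29.9% of all tested genes did. *Fut2* and *Gcnt3* were higher in KO (2 of 10, against 16.0% of all tested genes), and *B4galnt1* and *St3gal6* were lower (2 of 10, against 13.9%). The other 6 did not pass the test. WT and KO libraries had no overlap for 3 of the 10, *Fut2*, *B4galnt1* and *St3gal6*, against 21.1% of all tested genes, so the shares among the 10 were not far from those of the transcriptome. The median log2 fold change was 0.05 over the 10 genes and 0.03 over all tested genes. What set these genes apart from each other was the spread between libraries, which ran from 4.58% of the mean for *B4galnt1* in WT to 222% for *St6galnac1* in KO.

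The deleted gene and the tissue were checked against the labels. *Slc39a14* was lower in KO by a log2 fold change of -1.35 (SE 0.22, adjusted p = 0.00184, edgeR), and all 5 KO libraries were below all 5 WT libraries. It was still counted in every KO library, at 78.4 to 160 CPM against 190 to 356 CPM in WT. The paper reports that *Zip14* is most expressed in the proximal small intestine and falls along the gut. The part of the deletion in the lower level was not tested. The markers of the labelled tissue went against the label in KO: the 10 genes of a proximal intestine list summed to between 6792 and 10707 CPM (counts scaled to library size by the TMM method, per 1e+06) in WT and to between 633 and 2252 CPM in KO. The 8 genes of an ileum list summed to between 317 and 375 CPM in WT and to between 3338 and 10556 CPM in KO, and *Fabp6*, a bile acid carrier of the ileum, lay between 0.0637 and 1.73 CPM in WT and between 2303 and 9044 CPM in KO. The summed enterocyte list was lower in KO (14256 to 31815 CPM, against 35013 to 46506 CPM), and the goblet cell list was at 10340 to 15246 CPM in WT and 14130 to 19981 CPM in KO, with 7 of its 10 genes called higher. Smooth muscle genes summed to between 1623 and 2655 CPM in WT and to between 3593 and 10422 CPM in KO, with 9 of 10 called higher and the highest sum in KO 4. Nerve and glia genes were called higher in 9 of 9. The 18 pan-epithelial genes summed to between 8439 and 10488 CPM in WT and to between 14052 and 17528 CPM in KO, with 8 called higher. B cell and follicle genes stood at 106 CPM in WT 5, 186 CPM in KO 2, 206 CPM in KO 3 and 258 CPM in KO 4, and between 11.6 and 24.5 CPM in the other 6 libraries. In these groups the knockout cannot be told apart from the level of the intestine or the share of muscle in the segment.

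**Figure D1:**
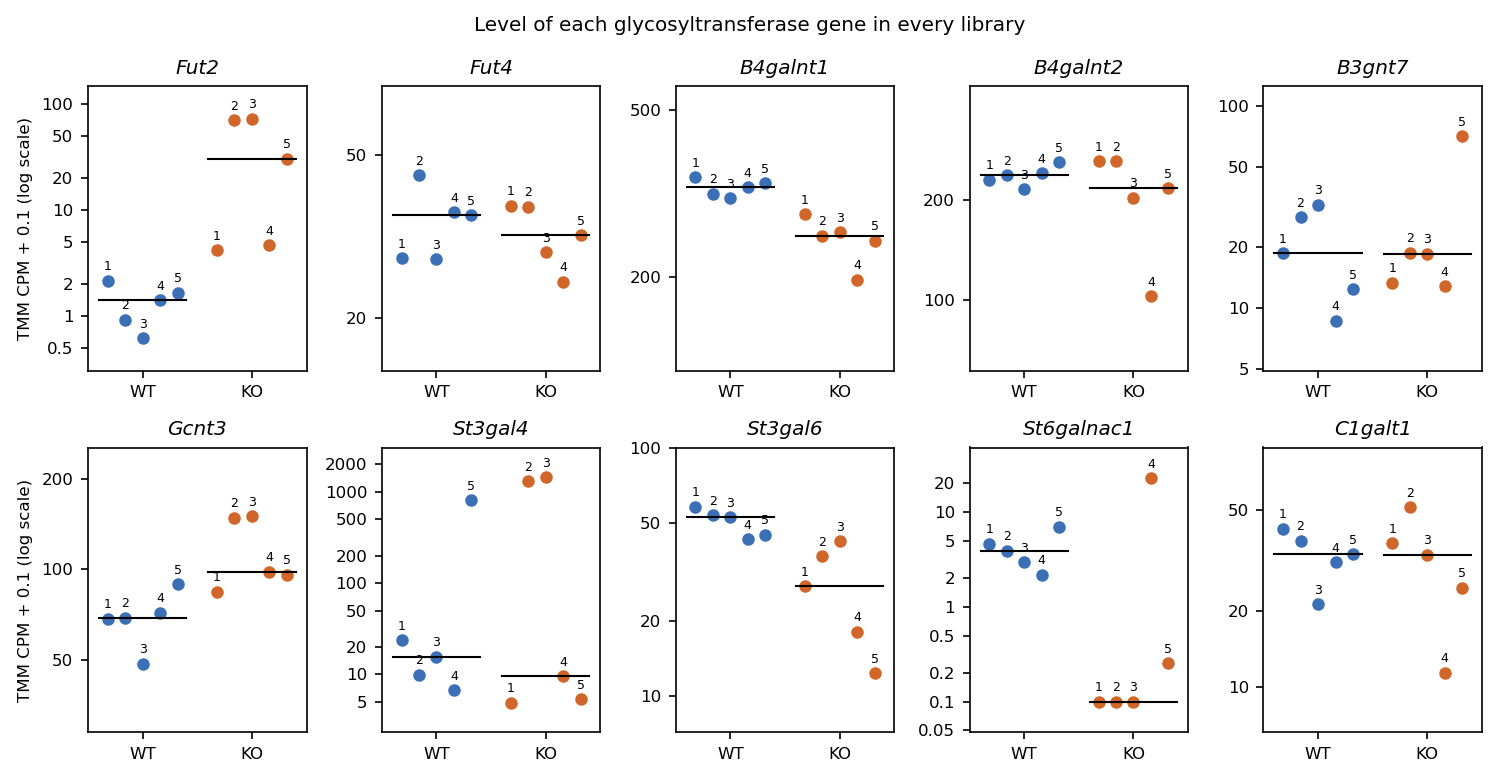
TMM-scaled CPM, with 0.1 added, of each of the 10 genes in every library on a log axis of its own (blue: WT, orange: KO, digits: replicate number, line: group median). *Fut2* ran from 0.524 to 2.07 CPM in WT and from 4.11 to 72.3 CPM in KO, whereas *St3gal4* was high in WT 5, KO 2 and KO 3 and *St6galnac1* was near 0 in 4 of 5 KO libraries.

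*Fut2* (ENSMUSG00000055978), the alpha-1,2-fucosyltransferase that makes the H antigen, lies at chr7:45648591-45666394 (GRCm38, minus strand) and shares no exon with another gene. Its level was 2.07, 0.828, 0.524, 1.32 and 1.57 CPM in WT 1 to 5. In KO 1 to 5 it was 4.11, 69.9, 72.3, 4.57 and 30.3 CPM. Every KO library was above every WT library, and the KO libraries themselves fell apart into KO 2, KO 3 and KO 5 with high levels and KO 1 and KO 4 with levels a few CPM above WT. The mean was 1.26 ± 0.609 CPM in WT and 36.2 ± 33.6 CPM in KO (SD, n = 5 each), and the fitted fold was 28.3, a log2 fold change of 4.82 (SE 0.87, 95% confidence interval 2.90 to 6.74, adjusted p = 0.0031, edgeR). The exact 2-sided permutation test over the 10 libraries gave p = 0.00794, the smallest that 5 against 5 can give. The WT level rested on few reads, between 9 and 40 per library. In a bulk segment, fewer cells of a type and less RNA per cell cannot be told apart, and this holds for every gene below.

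*Fut2* kept its call when any single library was left out, with a log2 fold change between 4.40 and 5.11. It was 4.0 (adjusted p = 0.0212, edgeR) with the B cell and follicle score as a covariate. Each such score is the mean log2 CPM of the genes of a list. In WT 1 to 4 against KO 1 and KO 5, the libraries with little follicle RNA, the log2 fold change was 3.82 (adjusted p = 0.0331, edgeR). The call was lost with the smooth muscle score (6.28, adjusted p = 0.169, edgeR) and with the pan-epithelial score (2.05, adjusted p = 0.591) as a covariate. The values of both scores did not overlap between the groups. Over all tested genes the first score left 10 calls higher and 8 lower, and the second 10 and 3. A lost call in these fits is thus not particular to a gene, here or below. The ileum markers rose in all 5 KO libraries together with *Fut2*, although *Fabp6* was highest in KO 4 at 9044 CPM, where *Fut2* was at 4.57 CPM, and lowest among KO in KO 2 at 2303 CPM, where *Fut2* was at 69.9 CPM. The part of the ileum markers in the *Fut2* level was not tested. *Fut1*, the second alpha-1,2-fucosyltransferase gene, lies 27532 bases away on the same chromosome. It was between 0.349 and 2.36 CPM in WT and between 0.681 and 1.41 CPM in KO, so that the ranges of the groups overlapped.

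The genes whose levels followed *Fut2* most closely between libraries of a group included *Ampd3* (Pearson r 0.97), *Mboat1* (0.963), *Cd44* (0.961) and *Rnf26* (0.96), over 10 libraries and after the group means were subtracted. They were picked as the highest of all tested genes, so the r is a description and has no test. *Mboat1*, a lysophospholipid acyltransferase, was at 3.34 CPM in WT and 39.5 CPM in KO on average, a log2 fold change of 3.56 (SE 0.44, adjusted p = 0.000471, edgeR). *Cd44*, a hyaluronan receptor, had a log2 fold change of 0.50 (SE 0.15, adjusted p = 0.0304).

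*Fut4* (ENSMUSG00000049307), an alpha-1,3-fucosyltransferase that makes the Lewis x structure, lies at chr9:14748320-14752393 (minus strand). It was 27.9, 44.5, 27.7, 36.1 and 35.5 CPM in WT 1 to 5, and 37.4, 37.2, 28.8, 24.4 and 31.7 CPM in KO 1 to 5. The groups overlapped almost completely. The log2 fold change was -0.10 (SE 0.16, 95% confidence interval -0.46 to 0.25, adjusted p = 0.644, edgeR). With scaling to pan-epithelial genes it was -0.76 and passed the test (adjusted p = 0.00337). The interval of *Fut4* lies below that of *Fut2*, with TMM scaling in both.

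*Gcnt3* (ENSMUSG00000032226), at chr9:70031496-70038088 (minus strand), encodes the mucin-type enzyme for core 2 and core 4 branches. In WT 1 to 5 it was at 68.4, 68.7, 48.4, 71.4 and 89.1 CPM, and in KO 1 to 5 at 83.9, 148, 150, 97.8 and 95.8 CPM. KO 2 and KO 3 were the highest, as for *Fut2*, and 4 of 5 KO libraries were above all WT libraries, with KO 1 below WT 5. The mean rose from 69.2 ± 14.4 CPM to 115 ± 31.4 CPM (SD, n = 5 each), and the log2 fold change was 0.73 (SE 0.20, 95% confidence interval 0.30 to 1.17, adjusted p = 0.0187, edgeR). The goblet cell list moved in the same direction, and its part in the *Gcnt3* level was not tested. With counts scaled to the pan-epithelial genes, the log2 fold change of *Gcnt3* was 0.11 (adjusted p = 0.651), and it was 0.48 (adjusted p = 0.118) in the libraries with little follicle RNA. The call was also lost with the follicle (0.45, adjusted p = 0.118) and pan-epithelial (0.46, adjusted p = 0.571) scores as covariates in edgeR. With the smooth muscle score it was lost as well (adjusted p = 0.436, edgeR), though the log2 fold change was 0.75 and only its SE grew, to 0.39.

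*C1galt1* (ENSMUSG00000042460), the core 1 synthase, lies at chr6:7844842-7875687 (plus strand). It was 42.0, 37.6, 21.0, 30.9 and 33.3 CPM in WT 1 to 5 and 36.7, 51.0, 33.1, 11.3 and 24.5 CPM in KO 1 to 5. The lowest value belonged to KO 4 and the highest to KO 2, and the log2 fold change was -0.07 (SE 0.33, 95% confidence interval -0.79 to 0.64, adjusted p = 0.88, edgeR). Without KO 4 it was 0.14.

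*B3gnt7* (ENSMUSG00000079445), an N-acetylglucosaminyltransferase of chain extension, lies at chr1:86302832-86307305 (plus strand). Its levels were 18.6, 28.1, 32.3, 8.56 and 12.3 CPM in WT 1 to 5 and 13.2, 18.7, 18.4, 12.8 and 70.8 CPM in KO 1 to 5. The 1 high value was that of KO 5, and the other KO libraries lay within the range of WT. The log2 fold change was 0.42 (SE 0.52, 95% confidence interval -0.72 to 1.57, adjusted p = 0.56, edgeR) with KO 5 and -0.34 without it.

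*B4galnt1* (ENSMUSG00000006731) and *B4galnt2* (ENSMUSG00000013418) add N-acetylgalactosamine to sialylated ends. B4galnt1 makes the gangliosides GM2 and GD2, and B4galnt2 the Sda antigen of intestinal mucins and glycolipids. *B4galnt1* lies at chr10:127165225-127172330 (plus strand). It was at 346, 316, 308, 327 and 335 CPM in WT 1 to 5, and at 283, 251, 256, 197 and 244 CPM in KO 1 to 5. All KO libraries were below all WT libraries, with KO 4 the lowest. The mean fell from 326 ± 14.9 to 246 ± 31.0 CPM (SD, n = 5 each), and the log2 fold change was -0.41 (SE 0.11, 95% confidence interval -0.64 to -0.17, adjusted p = 0.0157, edgeR; exact permutation p = 0.00794). Of its exons 715 bases are shared with *Slc26a10* on the other strand, which held between 3.26 and 5.65 CPM. The log2 fold change was -0.35 (adjusted p = 0.0814) with the follicle score as a covariate and -0.30 (adjusted p = 0.183) in the libraries with little follicle RNA. The call was also lost with the smooth muscle (-0.12, adjusted p = 0.786) and pan-epithelial (-0.60, adjusted p = 0.194) scores.

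*B4galnt2*, at chr11:95865943-95914891 (minus strand), was even across the libraries but for 1. It stood at 230, 237, 215, 241 and 259 CPM in WT 1 to 5 and at 261, 261, 203, 103 and 217 CPM in KO 1 to 5. KO 4, the library with the most smooth muscle RNA, was the lowest. The log2 fold change was -0.18 (SE 0.21, 95% confidence interval -0.64 to 0.28, adjusted p = 0.545, edgeR), and it was -0.83 and passed the test with scaling to pan-epithelial genes (adjusted p = 0.00484). The genes closest to it between libraries of a group were *Arhgef11* (Pearson r 0.996), *Atg9a* (0.991), *Klf5* (0.989), the unnamed ENSMUSG00000085942 (0.988) and *Myh9* (0.985), again over 10 libraries and as a description. None of the 5 passed the test of KO against WT. *Klf5*, a transcription factor of crypt epithelium, was at 179 CPM in WT and 167 CPM in KO on average.

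The sialyltransferases held the genes with the widest spread between libraries. *St3gal4* (ENSMUSG00000032038) and *St3gal6* (ENSMUSG00000022747) both add alpha-2,3-linked sialic acid to galactose, as on selectin ligands. *St3gal4* lies at chr9:35046576-35119268 (minus strand). It was at 23.5, 9.81, 15.6, 6.58 and 809 CPM in WT 1 to 5 and at 4.84, 1297, 1435, 9.42 and 5.29 CPM in KO 1 to 5. The highest library was 297 times the lowest, and WT 5, KO 2 and KO 3 stood far above the other 7, so that the high state occurred in both groups. The log2 fold change was 1.67 (SE 1.79, 95% confidence interval -2.26 to 5.60, adjusted p = 0.499, edgeR), and 5.30 (adjusted p = 0.0606) without WT 5. In WT 1 to 4 against KO 1 and KO 5 it was -1.45 (adjusted p = 0.107).

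The 3 libraries with high *St3gal4* were 3 of the 4 with B cell and follicle RNA. *Cr2*, the complement receptor of B cells and follicular dendritic cells, was at 13.7 CPM in WT 5, 14.6 CPM in KO 2, 19.7 CPM in KO 3 and 22.5 CPM in KO 4, and between 0.104 and 0.255 CPM in the other 6. KO 4 had the most follicle RNA and *St3gal4* at 9.42 CPM. The part of follicle cells in the *St3gal4* level was not tested. Of the exons of *St3gal4*, 412 bases are shared with *4930581F22Rik* on the other strand, which was also highest in these libraries, at 5.76 CPM in WT 5, 9.58 CPM in KO 2 and 10.4 CPM in KO 3, against 0.733 to 2.95 CPM in the rest. The next gene beyond its end, *Kirrel3*, was at 3.61 CPM in KO 2 and 5.17 CPM in KO 3, and between 0.0582 and 0.999 CPM in the other 8 libraries, WT 5 among them at 0.783 CPM. *Dcps*, which lies 5140 bases from *St3gal4* on the other side, was between 7.03 and 13.5 CPM in all 10 libraries.

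*St3gal6* lies at chr16:58468125-58524243 (minus strand). Its levels were 57.9, 53.5, 52.4, 42.7 and 44.6 CPM in WT 1 to 5 and 27.6, 36.5, 41.9, 18.1 and 12.3 CPM in KO 1 to 5. All KO libraries were below all WT libraries, with KO 3 at 41.9 CPM just under WT 4 at 42.7 CPM and KO 5 the lowest. The mean fell from 50.2 ± 6.38 to 27.3 ± 12.3 CPM (SD, n = 5 each), and the log2 fold change was -0.88 (SE 0.28, 95% confidence interval -1.50 to -0.26, adjusted p = 0.0376, edgeR; exact permutation p = 0.00794). The call was close to its threshold, and it was lost with scaling by library size alone (-0.74, adjusted p = 0.0692) and without WT 1, WT 2, WT 3, WT 5, KO 1 or KO 4, with log2 fold changes between -1.10 and -0.70 over all 10 omissions. It was also lost with the follicle (-1.09, adjusted p = 0.0701) or Y-linked (-0.82, adjusted p = 0.0526) score as a covariate in edgeR. The Y-linked score carries no information, since those genes were near 0 in all libraries. With the smooth muscle (-0.39, adjusted p = 0.791, edgeR) or pan-epithelial (-0.37, adjusted p = 0.77) score, which left few calls over all genes, it was lost as well. The exons of *St3gal6* share 1603 bases with *Dcbld2* on the other strand, which was between 6.94 and 8.84 CPM in WT and between 6.97 and 15.8 CPM in KO.

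Promoter windows of RefSeq (GRCm38.p6, 250 bases before to 50 after a start) were found for 6 of the 10 genes and not for *Fut2*, *B4galnt1*, *Gcnt3* and *St6galnac1*. Those of *St3gal4*, the gene with the widest range in CPM, and of both starts of *St3gal6*, the called sialyltransferase, are printed here 5′ to 3′ on the minus strand, with motif matches in capitals. The first is chr9:35116815-35117114, the others are chr16:58524204-58524503 and chr16:58523377-58523676.
St3gal4: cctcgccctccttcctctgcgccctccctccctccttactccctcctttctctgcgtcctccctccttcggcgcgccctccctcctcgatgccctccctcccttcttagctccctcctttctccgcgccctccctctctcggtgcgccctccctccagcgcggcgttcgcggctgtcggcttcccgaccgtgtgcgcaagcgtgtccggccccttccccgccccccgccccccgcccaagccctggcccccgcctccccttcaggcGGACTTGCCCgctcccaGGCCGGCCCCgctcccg
St3gal6, first start: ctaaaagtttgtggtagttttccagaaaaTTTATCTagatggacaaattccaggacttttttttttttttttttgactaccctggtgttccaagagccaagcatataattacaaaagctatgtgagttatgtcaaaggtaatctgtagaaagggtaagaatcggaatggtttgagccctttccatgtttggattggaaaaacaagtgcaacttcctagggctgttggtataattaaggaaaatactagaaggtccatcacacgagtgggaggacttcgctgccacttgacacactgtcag
St3gal6, second start: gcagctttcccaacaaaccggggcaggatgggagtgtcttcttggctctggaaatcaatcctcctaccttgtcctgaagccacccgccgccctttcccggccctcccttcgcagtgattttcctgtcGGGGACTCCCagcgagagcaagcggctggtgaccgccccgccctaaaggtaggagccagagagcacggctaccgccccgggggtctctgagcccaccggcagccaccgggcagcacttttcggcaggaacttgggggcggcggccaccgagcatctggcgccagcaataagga
A set of 4 motifs was searched on both strands, namely TTCNNNGAA for STAT factors, TTTATN for the Cdx proteins, AGATAA for proteins of the Gata family, and the NF-kB motif. The window of *St3gal4* has a GC content of 74% and 2 NF-kB matches. The first start of *St3gal6* has a GC content of 38.7% and 1 Cdx and 1 Gata match, which overlap each other, and the second start has 64.7% and 1 NF-kB match. Over 32851 windows, 8.3% held a STAT match, 50.8% an NF-kB match, 39.9% a Cdx match and 11.2% a Gata match, and the median GC content was 52.7%. A match is a description of the letters and not a binding site.

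*St6galnac1* (ENSMUSG00000009588), the enzyme of sialyl-Tn that caps mucins of goblet cells with sialic acid, lies at chr11:116765025-116775507 (minus strand) and shares no exon with another gene. It was at 4.56, 3.82, 2.85, 2.09 and 6.94 CPM in WT 1 to 5. In KO 1, KO 2 and KO 3 no read was counted, KO 4 was at 22.7 CPM and KO 5 at 0.157 CPM. In reads, this was 359 over the 5 WT libraries, 3 over KO 1, KO 2, KO 3 and KO 5 together, and 477 in KO 4 alone. A count of 0 allows up to 3 counts, which is 0.157 to 0.169 CPM in KO 1, KO 2 and KO 3. KO 4 was thus above every WT library, and the other 4 KO libraries were below every WT library.

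Across all 5 KO libraries the log2 fold change of *St6galnac1* was 0.18 (SE 1.38, 95% confidence interval -2.85 to 3.22, adjusted p = 0.931, edgeR). Without KO 4 it was -6.43 (SE 0.74, adjusted p = 0.000664), a value that depends on the prior count, and the ratio of the depth-scaled counts of those 4 libraries to WT was 0.0099 with an exact 95% counting interval of 0.00203 to 0.0292. KO 4 was left out after its value had been seen. *BC018473*, a gene on the opposite strand 5652 bases away and chosen after its values were seen, was also high in KO 4 and low in the other KO libraries. It was between 8.08 and 17.5 CPM in WT and at 0.45, 0.419, 0.162, 19.7 and 0.786 CPM in KO 1 to 5. *Mxra7*, 27555 bases away on the other side, was between 9.69 and 19.3 CPM in all 10 libraries.

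**Figure D2:**
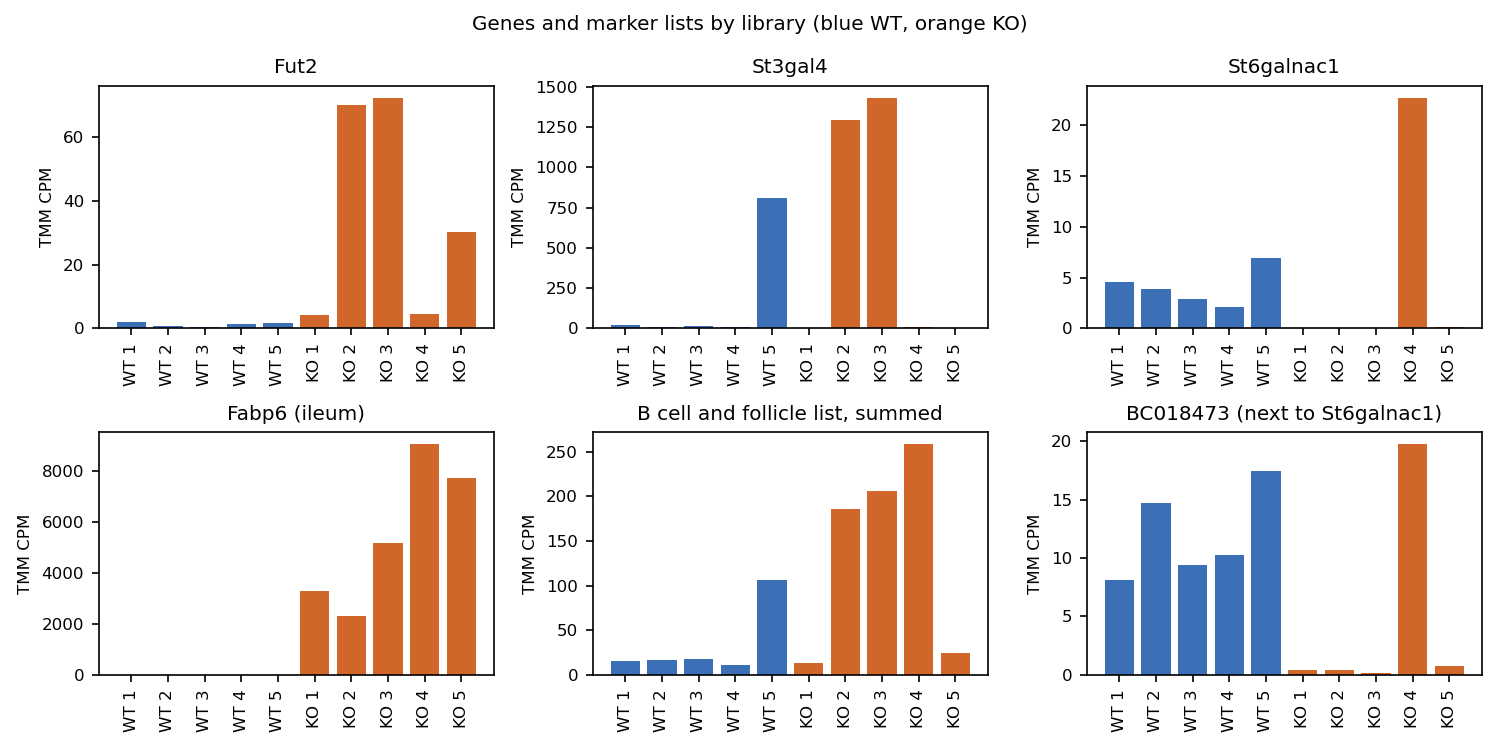
TMM-scaled CPM in each library (bars from 0, blue: WT, orange: KO) for *Fut2*, *St3gal4*, *St6galnac1*, *Fabp6*, the summed B cell and follicle list and *BC018473*. High *St3gal4* was seen in WT 5, KO 2 and KO 3, with follicle RNA between 106 and 206 CPM, while *St6galnac1* and *BC018473* were above 1 CPM in KO 4 alone among KO.

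Levels of the genes can be set against each other only per length of their exons (RPKM from TMM-scaled counts). In WT the order of mean levels was *B4galnt2* (137 ± 9.27 RPKM), *B4galnt1* (94.4 ± 4.32), *St3gal4* (59.1 ± 122), *Gcnt3* (16.1 ± 3.36), *Fut4* (8.42 ± 1.70), *St3gal6* (8.14 ± 1.03), *C1galt1* (5.41 ± 1.3), *B3gnt7* (4.83 ± 2.45), *St6galnac1* (1.69 ± 0.781) and *Fut2* (0.232 ± 0.112). Both N-acetylgalactosaminyltransferases led and *Fut2* was last. The ranges of WT libraries overlapped between *Fut4* and *St3gal6*, between *C1galt1* and *B3gnt7*, between *B3gnt7* and *St6galnac1*, and between *St3gal4* and both its neighbours, and not between the other neighbours in this order. In KO the highest mean was that of *St3gal4* (188 ± 255 RPKM). *Fut2* was at 6.67 ± 6.18 RPKM, within the spread of *Fut4* (7.83 ± 1.37), *B3gnt7* (6.47 ± 5.98) and *C1galt1* (5.14 ± 2.42), and *B4galnt2* (121 ± 37.6) and *B4galnt1* (71.3 ± 8.98) followed *St3gal4*. The mean of *St3gal4*, and with it its place in the order, rested on WT 5 in WT and on KO 2 and KO 3 in KO.

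**Figure D3:**
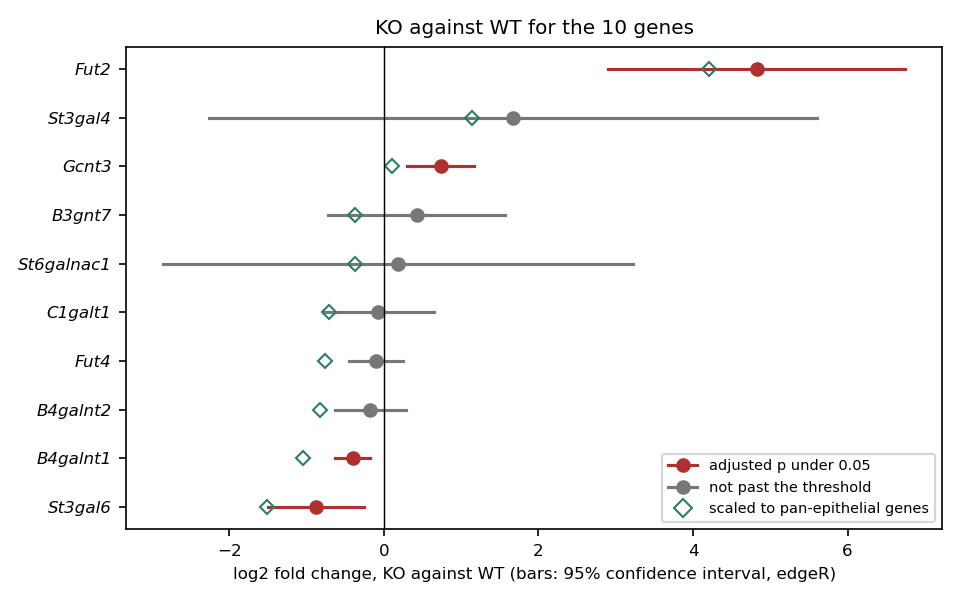
Log2 fold change of KO against WT for the 10 genes from edgeR, with 95% confidence intervals (red: adjusted p under 0.05, grey: not past it) and, as open diamonds, the value after scaling to pan-epithelial genes. The diamonds lie to the left of every point, and *Gcnt3* comes close to 0 at 0.11 while *Fut2* stays at 4.21.

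The scaling moved all values together. The median of all tested genes was 0.03 with TMM scaling, 0.15 with library size alone and -0.62 with scaling to pan-epithelial genes, and the share of calls that were higher in KO was 53.5%, 69.2% and 4.91%. Relative to the median of all genes, the log2 fold change under TMM and pan-epithelial scaling was 4.80 and 4.83 for *Fut2*, 0.71 and 0.73 for *Gcnt3*, -0.43 and -0.43 for *B4galnt1*, and -0.91 and -0.89 for *St3gal6*. A scaling factor per library moves all genes by nearly the same amount, so these pairs of values are close by construction, and *Gcnt3* lost its call with pan-epithelial scaling.

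The other genes of glycan synthesis were taken from 9 lists. Of their genes 130 were found in the counts and 109 were tested, of which 29 were higher in KO and 17 lower, with a median log2 fold change of 0.13. Among the 15610 tested genes, 16.0% were higher and 13.9% lower, with a median of 0.03, and the counts of each list below stand against these shares. Scaled to pan-epithelial genes, the counts were 9 higher and 61 lower. That scaling called 502 higher and 9713 lower of all 15652 genes tested with it, so these counts do not stand against the shares above. Each list is given here by its counts and by its leading and most abundant genes. *Fut8*, *Galnt6*, *B3galt2*, *Nans*, *Slc35a1*, *Glb1* and *Muc13* share exon bases with another gene, and *Muc3* and *Muc3a* are close copies, so their counts are less certain.

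Genes that supply GDP-fucose went both ways, with 2 of 6 higher and 2 lower. *Slc35c2*, a Golgi protein that favours O-fucosylation of Notch, fell from 198 ± 45.8 to 64.4 ± 17.9 CPM (log2 fold change -1.62, SE 0.21, adjusted p = 0.000689, edgeR). *Gmds*, which makes the precursor of GDP-fucose from GDP-mannose, rose from 119 ± 15.6 to 204 ± 73.7 CPM (0.78, SE 0.21, adjusted p = 0.0185). *Fuk*, the kinase that salvages free fucose, fell from 45.7 ± 1.56 to 28.5 ± 5.12 CPM (-0.68, SE 0.12, adjusted p = 0.00279). *Slc35c1*, the Golgi transporter of GDP-fucose, was at 132 CPM on average in both groups and did not pass the test. Of the other fucosyltransferases, 6 of 9 were tested and 1 was called: *Fut8*, which adds core fucose to N-glycans, was lower (86.2 ± 3.77 to 55.3 ± 12.0 CPM, log2 fold change -0.64, SE 0.15, adjusted p = 0.0088).

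Among 16 tested genes that start O-glycans, 3 were higher and 1 lower. *Galnt12*, a transferase that also stands in the goblet cell list, rose by a log2 fold change of 0.87 (SE 0.15, adjusted p = 0.00247, edgeR) and *Slc35a2*, the Golgi transporter of UDP-galactose, by 0.53. The most abundant, *Galnt6*, was lower at -0.31 (adjusted p = 0.0385), and *Galnt1* and *Galnt10* had values of -0.26 and -0.10 without passing the test. Of 24 tested genes of core structure and extension, 7 were higher and 3 lower. *B3galt2* (log2 fold change 2.75, SE 0.90, adjusted p = 0.0404), *B3gnt6* (1.79, SE 0.29, adjusted p = 0.00181) and *B3gnt5* (1.75, SE 0.48, adjusted p = 0.0199) had the largest changes, with group means between 0.665 and 6.65 CPM. *B3gnt6*, the core 3 synthase of the colon, was at 1.61 ± 0.661 CPM in WT and 5.57 ± 0.96 CPM in KO without overlap. The abundant galactosyltransferases were divided, with *B4galt1* higher (0.44) and *B4galt5* (-0.46) and *B4galt6* (-0.59) lower.

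Of 17 tested sialylation genes 7 were higher, 1 was lower and 9 did not pass the test, with a median log2 fold change of 0.41. *St6galnac6*, which sialylates gangliosides and disialyl Lewis a, rose from 8.06 ± 1.16 to 25.4 ± 17.0 CPM (1.66, SE 0.39, adjusted p = 0.0102, edgeR) without overlap of the groups. *St3gal3* was higher by 0.84 and *Slc35a1*, the Golgi transporter of CMP-sialic acid, by 0.81. *Nans* and *Gne*, both of sialic acid synthesis, were higher by 0.65 and 0.41, whereas *Cmas*, which activates it, had a value of 0.23 and did not pass the test. Among 10 tested sulfation genes, 3 were higher and 2 lower: *Papss2*, of the sulfate donor, fell from 673 ± 527 to 160 ± 52.8 CPM (-2.07, SE 0.54, adjusted p = 0.0154) and its relative *Papss1* rose (0.76). WT 4 at 178 CPM and WT 5 at 205 CPM lay within the KO range of *Papss2*, so that its difference rested on WT 1 to 3. *Gal3st1* fell by 0.74 on the log2 scale, and *Slc26a2*, a sulfate transporter, rose by 0.57.

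Of 11 genes that trim glycans 2 were higher and 3 lower. *Neu1*, the lysosomal sialidase, rose from 45.1 ± 8.48 to 275 ± 121 CPM (log2 fold change 2.61, SE 0.27, adjusted p = 0.000217, edgeR), with every KO library above every WT library. *Glb1*, the lysosomal beta-galactosidase, rose by 0.88, and *Neu3*, a sialidase of the cell membrane, fell (-1.10). Of the fucosidase genes, *Fuca1* had a log2 fold change of 0.03 and no call, and *Fuca2* was lower at -0.46. Of the mucins, 11 were counted and 6 tested, with 2 higher and 1 lower. *Muc2*, the gel-forming mucin of goblet cells, rose from 1665 ± 475 to 4142 ± 1102 CPM (1.31, SE 0.26, adjusted p = 0.00486), without overlap and alongside the goblet cell list. *Muc3a* was just past the threshold (0.63, adjusted p = 0.0496), *Muc6* was lower (-0.92), and the membrane mucins *Muc13* and *Muc3* had values of -0.23 and 0.38 without a call.

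Genes known to act on *Fut2* transcription or its induction were split, with 3 of 13 tested higher and 3 lower. *Ltb*, a lymphotoxin subunit, was higher (5.50 ± 2.97 to 15.9 ± 9.61 CPM, log2 fold change 1.54, SE 0.48, adjusted p = 0.0343, edgeR), with overlap of the groups. *Cdx1* (0.92, adjusted p = 0.000243) and *Cdx2* (0.78, adjusted p = 0.00273), homeobox factors of the intestine, were higher without overlap. *Hnf4g* fell from 508 ± 57.5 to 214 ± 82.8 CPM (-1.25, SE 0.23, adjusted p = 0.00318), whereas *Hnf4a* had a value of 0.27 and did not pass the test. *Il22* itself was between 0 and 0.262 CPM and fell under the filter.

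**Figure D4:**
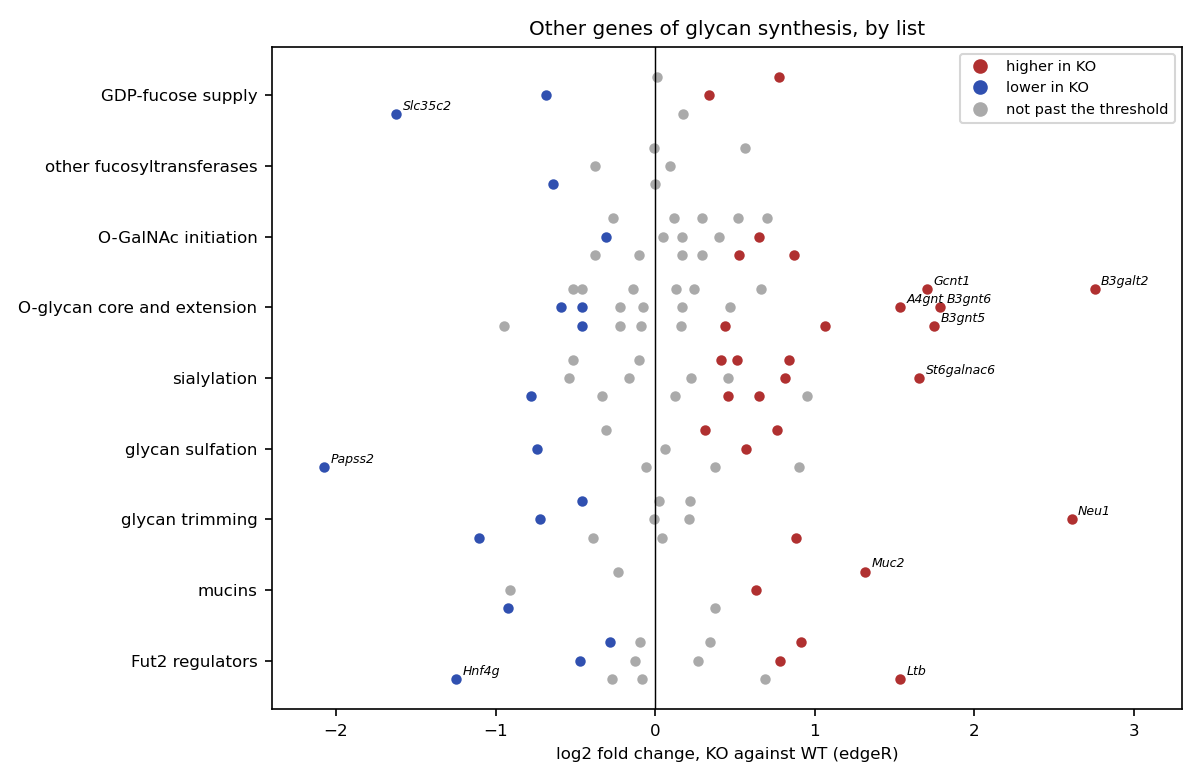
Log2 fold change of KO against WT (edgeR) of the tested genes of the 9 lists, 1 point per gene (red: higher, blue: lower, grey: not past the threshold, vertical offsets only separate points). *B3galt2* at 2.75 and *Neu1* at 2.61 lie farthest to the right and *Papss2* at -2.07 farthest to the left.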

How the data were processed

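RNA from proximal intestine of 5 WT and 5 KO mice had been made into SMARTer mRNA-Seq libraries. For each library the authors deposited whole-number counts of reads for every Ensembl gene ID, with no normalization. The submitters' processing notes name FastQC 0.11.9, Trimmomatic, HISAT2 2.0.4, SAMtools 1.3.1, DESeq2 1.14.1 and the build GRCm38 (mm10). Which program and annotation counted the reads, and whether strand was used, is not given in the sources used here, so reads of genes that overlap on opposite strands may have been counted for either gene. Totals were between 16729787 and 20819678 counts in WT and between 17118742 and 19414828 in KO, and intervals and floors made from counts cover counting error only.

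GENCODE M21 gave symbols for 34490 of the 35275 IDs, positions and the exon lengths for RPKM. Groups were compared with edgeR 4.0.16 in R 4.3.3 (quasi-likelihood test, TMM normalization, filterByExpr with a minimum count of 10 and a minimum total of 15, Benjamini-Hochberg adjustment over all tested genes, threshold 0.05). Standard errors and intervals are those of this model. Correlations used log2 CPM with a prior count of 2. Exact permutation tests ran over the 252 splits into 5 and 5. The p-values measure the spread between these 10 libraries.

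The 10 genes and the lists were chosen with earlier results of these data known. The text names the 10 genes, *Slc39a14*, in each of the 9 pathway lists up to 3 called genes with the largest log2 fold change and up to 3 with the highest mean CPM, the 5 genes most like *Fut2* and *B4galnt2*, and up to 3 genes of a marker list. *Fut1*, *Mamstr*, *Fam83e*, *Spaca4*, *Sphk2*, *Dbp*, *Dcps*, *Kirrel3*, *Mxra7*, *BC018473*, *Il22* and the genes that share exons were named after their values were seen. Some genes that this rule names are not reported here. Alternatives were DESeq2 1.42.0, RLE or no normalization factors, scaling to pan-epithelial genes, other filters, robust dispersion, a replicate block, covariates and omission of single libraries. The test was checked on simulated data.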

Additional observations from a re-analysis of the deposited data

Results flagged for a closer look

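In 3 of 20 groups of 5 libraries, 1 library stood apart from the other 4 by Dixon's test, where chance alone marks about 1 in 20 groups. *B3gnt7* was at 70.8 CPM in KO 5 and between 12.8 and 18.7 CPM in the other KO libraries. *St3gal4* was at 809 CPM in WT 5 and between 6.58 and 23.5 CPM in the other WT libraries, and in KO it was high in KO 2 and KO 3, which are too many of 5 for such a test to mark. *St6galnac1* was at 22.7 CPM in KO 4 and between 0 and 0.157 CPM in the other KO libraries. KO 4 was also the lowest of the 10 libraries for 4 of the 10 genes and had the highest sum of smooth muscle genes, at 10422 CPM. The part of smooth muscle or follicle RNA in these values was not tested.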

How the results depend on the processing

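Counts of genes higher and lower in KO over all tested genes (2492 and 2169) were 502 and 9713 with scaling to pan-epithelial genes, 10 and 8 with a smooth muscle score and 10 and 3 with a pan-epithelial score as covariate, 933 and 1070 with the follicle score, 544 and 582 in libraries with little follicle RNA, and between 1634 and 2944 and between 1573 and 2563 when 1 library was left out, with the fewest calls without WT 2. Both follicle settings were chosen after seeing the data. The libraries with little follicle RNA (WT 1 to 4, KO 1 and KO 5) leave out KO 4, which held 477 of the 480 KO reads of *St6galnac1*. A call of *St6galnac1* in them therefore repeats the omission of KO 4. Of the 10 genes, 2 higher and 2 lower became 1 and 4 with pan-epithelial scaling (*Fut4* at -0.76 and *B4galnt2* at -0.83 newly lower), 0 and 0 with the smooth muscle or pan-epithelial score, 1 and 0 with the follicle score, 1 and 2 in libraries with little follicle RNA (*St3gal6* and *St6galnac1* lower, the latter newly called at -5.25, adjusted p = 0.0167, edgeR, and *B4galnt1* no longer), 1 lower with library size alone or with the Y-linked score (which carries no information), and between 1 and 2 lower when 1 library was left out. Higher and lower genes of the 9 lists (29 and 17) were 9 and 61, 0 and 0, 0 and 0, 13 and 5, and 8 and 7 under the first 5 of these settings, and between 19 and 30 and between 11 and 19 when 1 library was left out. The cause was not tested. The summed smooth muscle and pan-epithelial genes did not overlap between the groups, so that these scores and the group cannot be told apart, while the follicle sums overlapped.

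The replicate number as a block gave 1 higher member, since *Gcnt3* had 0.71 (adjusted p = 0.0578, edgeR), and 1950 higher and 1898 lower genes overall. Same-numbered libraries deviated together weakly or not at all (r between -0.167 and 0.177, highest for WT 4 and KO 4). The numbers thus gave no clear sign of pairs of mice, which these r values cannot exclude.

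*Fut2* lost its call only with the smooth muscle (6.28, adjusted p = 0.169) and pan-epithelial (2.05, adjusted p = 0.591) scores among 23 alternatives. Signs turned for 6 genes that had no call over all libraries. *Fut4* was 0.012 with library size alone, 0.42 with the smooth muscle score, 0.022 in libraries with little follicle RNA, and between -0.18 and 0.00225 when 1 library was left out, the latter without WT 2. *B4galnt2* was 0.66 with the smooth muscle score and 0.052 in those libraries. *B3gnt7* was -0.37 with pan-epithelial scaling, -1.17 with that score and -0.34 without KO 5. *St3gal4* was -6.21 with the pan-epithelial score, -1.72 with the follicle score and -1.45 in those libraries. *St6galnac1* was -0.38 with pan-epithelial scaling and with the Y-linked score, -4.03 with the block, -9.57 with the smooth muscle score, -3.66 with the follicle score, -5.25 in those libraries, and between -6.43 (adjusted p = 0.000664) without KO 4 and 0.50 without KO 1 over all omissions. *C1galt1* was 0.050 with library size alone, 1.31 with the smooth muscle score, 0.02 without WT 1, 0.00123 without KO 5, and between -0.33 without KO 2 and 0.14 without KO 4 over all omissions. DESeq2 gave no adjusted p for *St6galnac1*. With 9 to 40 reads of *Fut2* per WT library, its fold rests on a shallow baseline.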

Other observations

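Other cell types were followed through their marker lists, which are given as values. Paneth cell genes summed to between 7806 and 22851 CPM in WT and between 6707 and 28785 CPM in KO, with 1 of 8 called higher. Plasma cell genes summed to between 845 and 1463 CPM in WT and between 472 and 1689 CPM in KO, with 1 of 6 higher. Myeloid and granulocyte genes summed to between 172 and 234 CPM in WT and between 71.4 and 198 CPM in KO, with 2 of 6 tested genes lower. Pancreas genes, which would mark tissue taken with the duodenum, stayed between 6.20 and 28.3 CPM in all libraries. Y-linked genes were between 0 and 0.0637 CPM in all 10 libraries.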
